A study of Homo sapiens with 6 samples.

Results

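Narrow segments shared by the 3 peak lists were short stretches of the genome that lay under a narrow RIP-seq peak in every SNRPD2-overexpression sample. Peaks wider than 1000 bp were dropped from each of the 3 peak lists, the rest were intersected, and stretches of at least 20 bp covered by all 3 lists on chromosomes 1 to 22, X and Y were kept. This gave 1796 segments with 116215 bases in all. They lay under 1766 of the 30109 narrow peaks of replicate 1 (5.87%), 1778 of the 160931 of replicate 2 (1.10%) and 1787 of the 15813 of replicate 3 (11.3%), out of 256139 peaks of any width in the 3 lists. The segments were chosen by the positions and widths of the deposited peaks, so their peak values are given as descriptions, with no test.

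RIP-seq sequences the RNA recovered with a protein by immunoprecipitation. The series applied it to HEK293T cells, an established human embryonic kidney line, to examine how SmD2, the product of SNRPD2, relates to pseudouridine, a modified base that the enzyme PUS7 places in RNA. The labels give 3 samples of genotype SNRPD2OE, which overexpress SNRPD2, and 3 of genotype Ctrl; the sources used here do not give the construct, the antibody or whether replicates were separate cultures, so differences between replicates may be technical. Files of the Ctrl samples were not analysed here. A segment therefore marks where reads piled up in every overexpression sample, with no value for the control RIP beside it.

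SmD2 is a core subunit of the ring of Sm proteins that forms around a uridine-rich site of the spliceosomal U1, U2, U4 and U5 small nuclear RNAs (snRNAs). The cap of the snRNA is then hypermethylated, and the particle is imported into the nucleus and matured in Cajal bodies with the help of small Cajal body RNAs (scaRNAs). The finished particles recognise splice sites and remove introns from precursor mRNA, so RNA recovered with an Sm protein can include snRNA, nascent transcripts and mRNA. PUS7 modifies uridines in a short context that reads UNUAR in RNA, where R is A or G.

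Letters were available for segments that lie inside the promoter windows of the RefSeq table (build GRCh38.p14), which run from 250 bases before to 50 after a gene's start. Of the 1796 segments, 25 lay wholly inside such a window. These windows belong to the start of a gene, so the segments in them lie close to an annotated start, though not always that of the gene that holds them: the windows at COIL, GNPAT, TYW3, MRM2, MYH10, RPL34 and DYNC1H1 are those of overlapping or neighbouring loci. The 8 printed here are from these 25 segments and are not all among the strongest of the 1796. Each is given as at most 30 bases around the median summit of the 3 lists. The letters run 5′ to 3′ on the strand of the gene that holds the segment. Capitals mark bases where a list has its summit, the position of highest pileup; TIPARP and DYNC1H1 have no summit inside the printed bases.
COIL, chr17:56960968-56960997, minus strand: ggctACGgcttcaatttgattacccgccgc
GNPAT, chr1:231241280-231241309, plus strand: cgaagTagggccgtcCTgagcgaaagaacc
TYW3, chr1:74733252-74733281, plus strand (the table gives no strand for this gene): gcagcgcggagttcaggaaatggaaGgcGc
MRM2, chr7:2242128-2242155, minus strand: tGggcgCtgctgctgcgcgtgcagacag
MYH10, chr17:8506364-8506393, minus strand: agctgcaggcgcagATtgatgagctcaagc
TIPARP, chr3:156674684-156674713, plus strand: cgtcgcggctctgtggtccctagacgtcgg
RPL34, chr4:108620664-108620693, plus strand: ctgaggaagcctagaGcTctcagaagcagt
DYNC1H1, chr14:102039147-102039176, plus strand: gaggagacggacattgtcatgcaggaggtg

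The COIL segment shows how closely the lists could coincide: the 3 summits fell on adjacent bases, 2 bp apart at most. COIL encodes coilin, the scaffold protein of Cajal bodies, and its segment of 82 bp held 12, 16 and 20 reads in replicates 1, 2 and 3. In GNPAT, which encodes a peroxisomal enzyme of ether lipid synthesis, the summits were 11 bp apart and held 31, 25 and 28 reads. In TYW3, which encodes a tRNA-modifying enzyme, the summits were 53 bp apart, and the reads numbered 20, 17 and 13. MRM2, a methyltransferase of mitochondrial ribosomal RNA, had the shortest of these segments, 28 bp, with 11, 10 and 8 reads. The 2 segments with no capital had summits 125 bp (TIPARP) and 126 bp (DYNC1H1) apart, so there the lists shared a stretch but not a summit.

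Among all segments with at least 20 bases inside a promoter window (44 segments, 1 window each), 3 (6.82%) held TNTAA on either strand and 6 (13.6%) held TNTAG, the DNA forms of the PUS7 context. Stretches of the same length and offset in all 35116 windows of the table held them on average in 19.9% and 18.1%, so these segments did not hold the motifs more often. The median GC content was 65.3% in the 44 pieces and 57.4% on average in the matching stretches. GTAAGT, a strong 5′ splice site, and ATTTTTG, a form of the Sm site, were in none of the 44 pieces and in 1.19% and 0.757% of the matching stretches. The 4 motifs were searched on both strands, and matches may overlap; a match is a string of letters only, and most segments lie outside these windows.

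A segment had a median length of 54 bp, with quartiles of 39 and 80 bp and a longest of 718 bp in SNRNP70. At the lower limit, 16 segments had exactly 20 bp, and 23 stretches of 19 bp fell just outside it; in all, 272 shared stretches were shorter than 20 bp. The width limit mattered in replicate 3 alone, where it removed 49284 peaks (75.7%); the widest peaks kept were 944, 783 and 1000 bp, and the narrowest removed were 1022 bp in replicate 1 and 1001 bp in replicate 3. Segments less than 500 bp apart merged into 1740 sites, so most stood alone. The summits of the 3 lists lay within 20 bp of each other at 572 segments (31.8%), and the median distance between the outermost summits was 38 bp.

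Reads under the summit were recovered from the authors' deposited fold and −log10 p, since both follow from a whole number of reads. The reads given for a segment are those at the summit of its covering peak, which can lie outside the segment. All 3 summits lay inside the segment at 758 segments (42.2%). Peaks that covered a segment had a median of 13, 12 and 11 reads in replicates 1, 2 and 3, against 4, 1 and 7 in the other narrow peaks of the same list. At least 10 reads lay under 62.3%, 66.4% and 59.1% of the covering peaks and under 15.97%, 4.54% and 29.96% of the others. Library totals are not in a peak list, so sequencing depth is unknown and these reads are the measure of precision. Reads without molecular identifiers are not independent molecules. The pileup height of 1 read was solved as 0.599, 1 and 0.254 in replicates 1, 2 and 3. The same number of reads thus gave a different pileup in each list. At 923 segments (51.4%) every list had at least 10 reads, at 305 every list had at least 20, and at 13 the poorest list had 1 read.

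**Figure D1:**
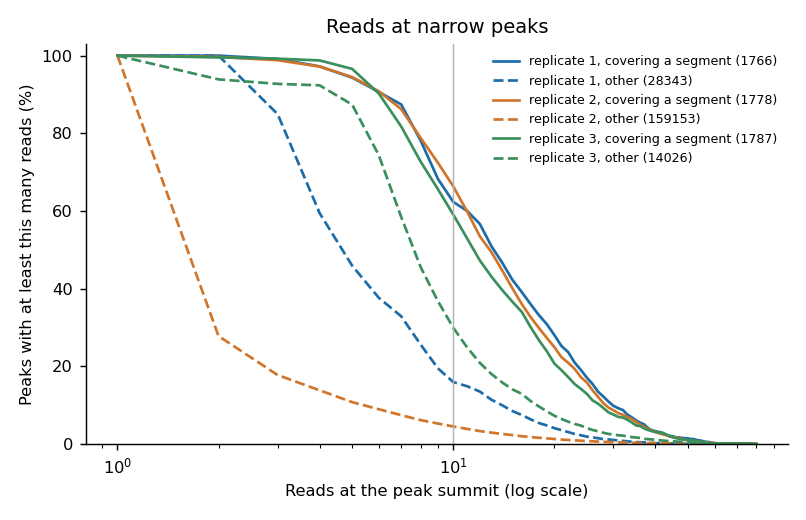
Share of narrow peaks (vertical axis, percent) with at least the number of reads at the summit given on the horizontal axis (log scale), for peaks that cover a shared segment (solid) and other narrow peaks of the same list (dashed), by replicate, with the number of peaks in brackets. At 10 reads, marked by the grey line, the solid curves stand at 62.3%, 66.4% and 59.1% and the dashed ones at 15.97%, 4.54% and 29.96%.

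The authors' deposited q-values, which adjust the peak p-values for the number of positions examined, were modest. A q under 0.05 was listed for 13.4%, 26.3% and 11.1% of the covering peaks and for 4.27%, 3.36% and 4.71% of the other narrow peaks. Only 32 segments had a q under 0.05 in every list, 710 had it in at least 1 list, and 434 had a deposited −log10 q of 0 in all 3. Presence in 3 lists and a low q in each were thus different properties of a segment.

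Of the 1796 segments, 1729 (96.3%) had their midpoint in an annotated gene and 1628 (90.6%) in the span of a protein-coding gene, introns included. They fell in 1195 of 20033 protein-coding genes, a background share of 5.97%; of the 4778 protein-coding genes that had a narrow peak in each list, 1194 (25.0%) also held a segment. The 1 further gene had a segment midpoint but no peak midpoint in some list. The median span of the holding genes was 38.1 kb, against 44.8 kb for genes with narrow peaks in every list but no segment and 24.1 kb for all protein-coding genes. Across the holding genes, the number of segments and the span had a Spearman's rho of 0.00494, given as a description since the genes share the 3 libraries.

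Most holding genes held 1 segment (908 genes), 184 held 2, 56 held 3, 27 held 4 and 14 held 5. PTPA and MDN1 held 6, MAP2K2 and TRAF2 held 7, SNRNP70 held 10 and USP9X held 30. PTPA activates the phosphatase PP2A, MDN1 is a giant ATPase that remodels precursors of the large ribosomal subunit, MAP2K2 is the kinase MEK2 of the ERK pathway, and TRAF2 is a ubiquitin ligase of tumour necrosis factor receptor signalling. The step from 10 to 30 had no gene in between.

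**Figure D2:**
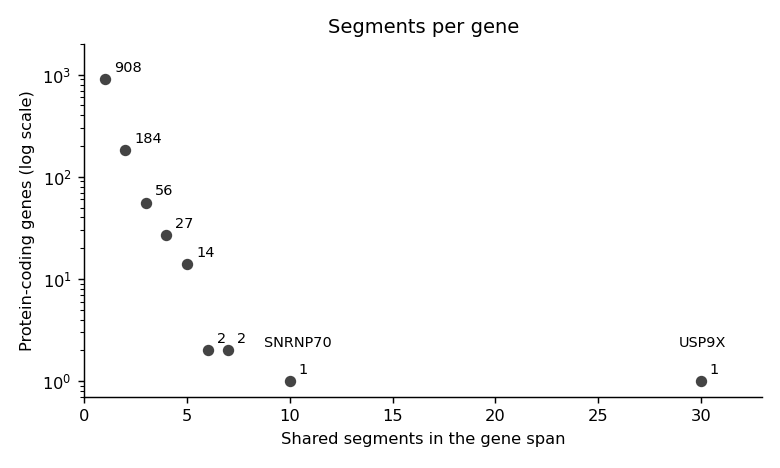
Number of protein-coding genes (vertical axis, log scale) that hold the number of shared segments on the horizontal axis. Points carry the gene count: 908 genes hold 1 segment, and USP9X stands apart with 30.

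USP9X, a deubiquitinase that removes ubiquitin from many proteins and so spares them from degradation, lies on chrX:41085445-41236579 (151 kb). It had 42, 53 and 36 narrow peaks in replicates 1, 2 and 3, and 27, 28 and 30 of them (64.3%, 52.8% and 83.3%) covered a segment. Its rank by number of narrow peaks among protein-coding genes was 1 in replicate 1, 51 in replicate 2 and 2 in replicate 3. The reads at its segments ranged from 17 to 36 with a median of 23.5 in replicate 1, from 14 to 34 with a median of 20 in replicate 2 and from 11 to 32 with a median of 19 in replicate 3. The ranges of the 3 replicates overlapped almost fully, and every segment had more than 10 reads in each.

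The USP9X segments ran from 0.308 to 147 kb from the end of the span with the lowest coordinate, with a median distance of 2.42 kb between neighbours and a longest gap of 37.9 kb, and 25 of the 30 lay beyond 80 kb. Together they covered 2517 bases. A q under 0.05 was listed in at least 1 replicate for 19 of the 30 and in every replicate for 1. USP9X has a close relative on chromosome Y, USP9Y, and the sources used here do not say how reads that match both were counted.

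Some other genes with many narrow peaks in replicates 1 and 2 held few or no segments. VPS13D, which encodes a lipid transfer protein, had 36, 54 and 2 narrow peaks and no segment. HERC1, a giant ubiquitin ligase, had 34, 38 and 3 and no segment, and HERC2 had 35, 36 and 4 and held 1. GPHN, which encodes the synaptic scaffold gephyrin and is 1227 kb long, had the most narrow peaks in replicate 2, 154, beside 30 and 12 in the other replicates, and held 1 segment. MDN1 led in replicate 3 with 40, beside 27 and 60, and held 6. In VPS13D, HERC1 and HERC2 the low number was that of replicate 3, whose list holds the fewest narrow peaks. That list had 65097 peaks of any width, of which 49284 (75.7%) were dropped as wider than 1000 bp. Dropped peaks are not counted here, so a low number does not show a lack of peaks in a gene. MDN1, and HUWE1 with 25, 30 and 34 narrow peaks and 4 segments, had many in each list.

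SNRNP70 encodes U1-70K, the protein that binds the first stem-loop of U1 snRNA, and lies on the plus strand at chr19:49085451-49108604. Its 10 segments were spread over the span of 23.2 kb, with the first 123 bp from the annotated start. The first segment, chr19:49085490-49085658, had 59, 52 and 53 reads. The second, 1.05 kb from the start, had 54, 42 and 54 reads. Between 4.87 and 19.2 kb, 6 segments had 24 to 37 reads in replicate 1, 23 to 37 in replicate 2 and 24 to 36 in replicate 3. The last pair lay 946 and 440 bp from the annotated end, and the covering peaks had 36, 17 and 36 and 36, 28 and 36 reads at their summits. In replicates 1 and 3, 1 peak each, 944 and 967 bp wide, covered both. At the first of the pair, 101 bp long, the outermost summits were 820 bp apart, so not every summit lay inside it. The last is the longest segment of all, 718 bp, at chr19:49107805-49108522.

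**Figure D3:**
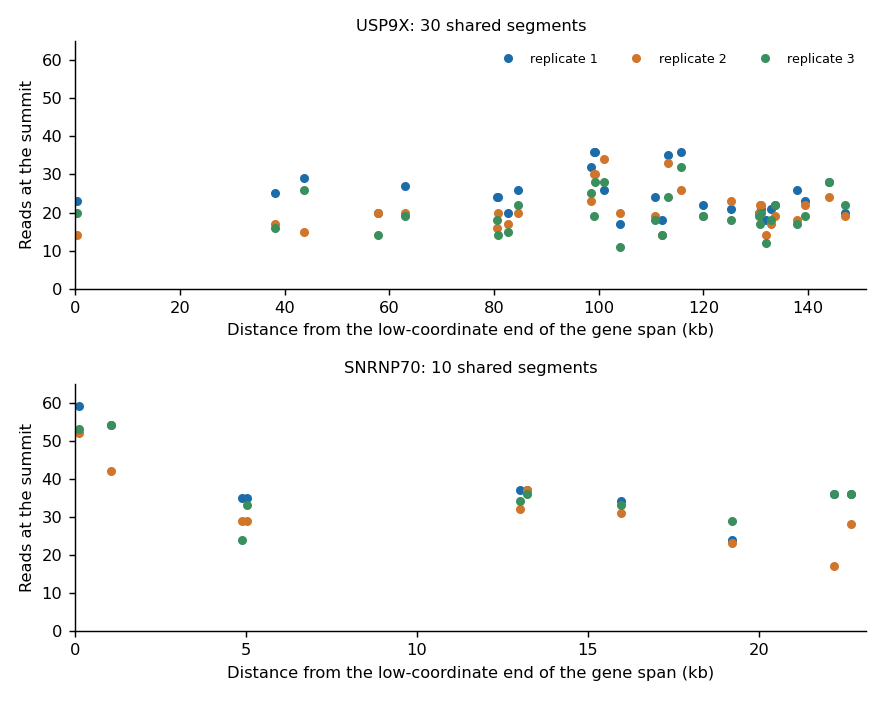
Reads at the summit (vertical axis) of the peak of each replicate that covers a shared segment, against the distance in kb of the segment from the end of the gene with the lowest coordinate (horizontal axis), for USP9X above and SNRNP70 below; each segment has 1 point per replicate. In USP9X 25 of 30 segments lie beyond 80 kb, and in SNRNP70 the highest values, 42 to 59 reads, are at the first pair of segments.

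SNRPD2, the overexpressed gene, held 2 segments of 202 and 209 bp in its span of 4.86 kb on the minus strand (chr19:45687454-45692316). Both had 78 reads in replicate 1, 80 in replicate 2 and 78 in replicate 3, which are the maxima among peaks of any width in each list. Narrow peaks that cover no segment reached 65, 80 and 78 reads, so these maxima are not particular to SNRPD2 in replicates 2 and 3. Whether the values are at a ceiling was not tested, so their likeness between replicates is not a measure of equal abundance. The deposited folds were modest, 1.71 and 2.17 in replicate 1, 1.95 and 2.79 in replicate 2 and 3.46 at both in replicate 3. The segment nearer the annotated end lay 183 bp from it. Since the sources used here do not describe the construct, reads from it cannot be told apart from those of the gene itself. SNRPD2 and LSM1, a subunit of the LSm ring that acts in mRNA decay, were the only holders among 18 Sm and LSm genes, and 3 of the 18 had a narrow peak in every list. PUS7, the pseudouridine-forming enzyme the series set out to examine, had 6, 12 and 1 narrow peaks and no segment. These numbers leave out peaks wider than 1000 bp, which were most of the peaks of replicate 3.

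Per length, PPP1CA, a catalytic subunit of protein phosphatase 1, held the most among genes with at least 3 segments, 3 in 3.68 kb or 8.16 per 10 kb. HSP90AB1, a cytosolic HSP90 chaperone, followed with 5 in 7.69 kb (6.50 per 10 kb), and reads of 37 to 55 in replicate 1, 38 to 52 in replicate 2 and 5 to 48 in replicate 3. PRMT5, the arginine methyltransferase that modifies Sm proteins before they are assembled, held 4 in 8.85 kb (4.52 per 10 kb). Its reads ran from 26 to 33 in replicate 1, 23 to 30 in replicate 2 and 17 to 27 in replicate 3. WDR74, a ribosome assembly factor, held 4 (4.49 per 10 kb). SNRNP70 was next at 4.32 per 10 kb, and USP9X, for all its segments, reached 1.98 per 10 kb.

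The strongest segments were ranked by the percentile of the deposited −log10 p within each list of narrow peaks, taking the lowest of the 3. TRL-TAG3-1, a leucine tRNA gene on chromosome 16, came first at the 99.7th percentile, with 43, 34 and 42 reads and summits within 5 bp. The end pair of SNRNP70 also reached 99.7, and RNVU1-14, a variant U1 snRNA gene, reached 99.5 with 55, 60 and 60 reads. SNORA80E, a box H/ACA snoRNA inside the span of KHDC4, had 49, 38 and 42 reads. GET3, an ATPase that hands tail-anchored membrane proteins on to the endoplasmic reticulum, had 26, 29 and 24. NUP133, a scaffold nucleoporin, had 22, 25 and 24. RPS3P4, RPS10P15 and RPL10AP6, copies of ribosomal protein genes, completed the first 10, and their segments were 39 bp each.

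A larger share of the segments than of the other narrow peaks lay at the beginning of protein-coding genes. Position was defined for 1331 segments whose midpoint lay in exactly 1 protein-coding gene with a known strand, as a share of the span from the annotated 5′ end. The first 10% of the span held 322 (24.2%), against 13.2%, 12.3% and 17.3% of the other narrow peaks of replicates 1, 2 and 3. Covering peaks exceeded the others by 9.91 percentage points ± 2.82 (SD, n = 3 lists), higher in 3 of 3. The exact two-sided sign-flip permutation test gave p = 0.25, the smallest that 3 lists allow, and 0.318 after Benjamini-Hochberg adjustment over 14 measures of position; the lists also share the segments, so they are not fully independent. Without replicate 3 the difference was 3.09 points, from segments covered by the remaining pair of lists.

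The last 10% of the span held 205 segments (15.4%), against 18.7%, 17.0% and 16.7% of the other narrow peaks. The mean difference was −2.30 percentage points ± 1.17 (SD, n = 3 lists), with the same exact p of 0.25. Covering peaks were fewer than the others there in 3 of 3 lists. The emptiest stretch was the third of the 10 equal parts, with 4.73% of the segments against 5.99%, 7.80% and 6.396%. Segments and other peaks alike had their largest shares at the ends of the span.

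**Figure D4:**
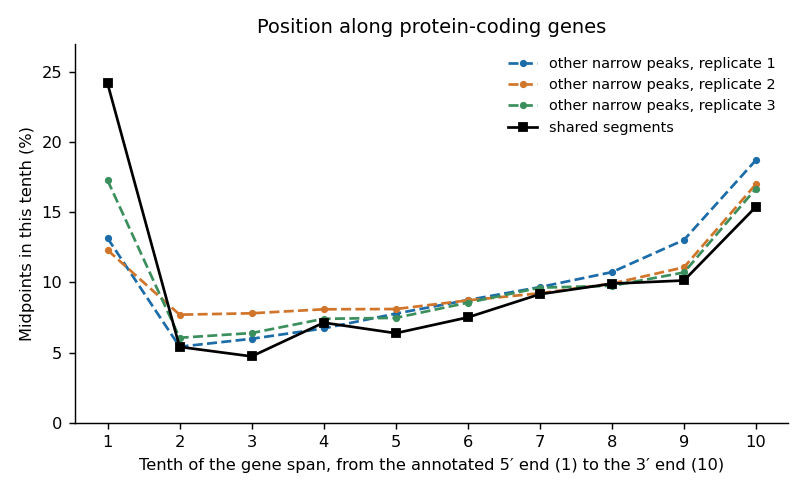
Share of midpoints (vertical axis, percent) in each of 10 equal parts of the span of protein-coding genes (horizontal axis, 5′ end to 3′ end), for the 1331 shared segments (black squares) and the other narrow peaks of each replicate (dashed). The segments reach 24.2% in the first part, above 13.2%, 12.3% and 17.3%.

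In bases, 210 segments in 207 genes lay within 300 bp of the annotated start, which is 15.8% of the positioned segments, against 6.84%, 2.93% and 10.2% of the other narrow peaks. The midpoints gathered just inside the gene: 89 were less than 100 bp from the start, 91 at 100 bp or more but under 200, 30 from there to 300, 15 to 400 and 7 to 500. Over the first 1000 bp the median distance was 138 bp, with quartiles of 92 and 282 bp. Within 1000 bp of the annotated end lay 8.64% of the segments, against 5.60%, 4.83% and 6.78% of the other narrow peaks, so close to the end the segments were the higher share although over the last 10% of the span they were not. The genes at covering peaks had a median span of 40.4, 40.4 and 40.3 kb in replicates 1, 2 and 3. Those at the other narrow peaks had 59.3, 90.3 and 47.2 kb. A fixed distance in bases is a larger part of a shorter span. How far this bears on the shares within 300 and 1000 bp was not tested. Exons and introns were not used here, so it is not known which of these segments lie in first exons.

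Among the strongest segments near a start was that of MYH9, non-muscle myosin heavy chain, 82 bp from the start with 21, 20 and 24 reads. KPNA2, an importin alpha that carries proteins into the nucleus, also had one at 82 bp, with 38, 38 and 35 reads. COIL was at 93 bp, GARS1, glycyl-tRNA synthetase, at 253 bp with 24, 21 and 25 reads, and HIF1A, the oxygen-regulated transcription factor, at 81 bp with 22, 18 and 18. ALKBH5, an eraser of N6-methyladenosine, was at 224 bp with 27, 21 and 25 reads, and EIF4G2, a translation initiation factor, at 65 bp with 24, 26 and 21. At COIL replicate 1 was lowest and replicate 3 highest, as given above; at the other genes named here the highest replicate was less than 1.5 times the lowest. Near an annotated end, CCT3, a chaperonin subunit, had 44, 41 and 46 reads at 142 bp, and ENO1, the glycolytic enzyme enolase, had 45, 60 and 56 at 155 bp.

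The first 10% of the span held 30.7% of the 724 segments that were the gene's only one and 16.5% of the 607 in genes with more. For the last 10% the shares were 13.7% and 17.5%. USP9X is not among these, since the table gives no strand for it. The difference between these kinds of gene was not tested.

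By gene class, where a segment in overlapping genes was given to the small RNA gene first, then pseudogene, protein-coding and long noncoding RNA gene, 1571 segments (87.5%) were protein-coding, 112 pseudogene, 30 small RNA, 16 long noncoding RNA, and 67 lay in no gene. Pseudogenes took 6.17%, 6.24% and 6.21% of the covering peaks in replicates 1, 2 and 3 and 4.16%, 3.69% and 3.93% of the others. The mean difference was 2.28 percentage points ± 0.272 (SD, n = 3 lists; exact sign-flip permutation p = 0.25, adjusted 0.75 over 6 classes). Small RNA genes took 1.64%, 1.57% and 1.57% against 0.300%, 0.181% and 1.24%, a difference of 1.02 points ± 0.602 with the same exact p. Both classes were higher among covering peaks in 3 of 3 lists. The covering peaks of all 3 lie over the same segments, so the lists are not independent and the SD mostly reflects the other peaks. For protein-coding genes the sign depended on the list, with 87.4%, 87.4% and 87.5% of covering peaks against 90.03%, 71.2% and 91.9% of the others. The mean difference was 3.05 percentage points ± 11.4 (SD, n = 3 lists; exact sign-flip permutation p = 1), and with at least 10 reads in every peak it was −8.53 points.

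Segments in small RNA genes had the most reads, with medians of 34, 31 and 34.5 in replicates 1, 2 and 3, and 26 of the 30 had at least 10 reads in every list. Pseudogene segments had medians of 20.5, 19 and 20.5, and protein-coding segments 12, 12 and 11. The 30 small RNA genes were 10 small nucleolar RNAs (snoRNAs), 7 annotated as snRNA, 6 tRNAs, 5 scaRNAs and 2 microRNA hairpins. Of all 3877 small RNA genes, 0.774% held a segment. By type, 5 of 52 genes of the class that holds the scaRNAs (9.62%) and 7 of 154 snRNA genes (4.55%) held a segment, compared with 10 of 1199 snoRNA genes (0.834%) and 6 of 443 tRNA genes (1.35%).

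The snRNA genes were RNVU1-18, RNVU1-15, RNVU1-14, RNVU1-6, RNVU1-27 and LOC124904613, with SNAR-A2. The RNVU1 genes are variant copies of U1. RNVU1-18 had 59, 60 and 36 reads, RNVU1-15 had 52, 48 and 46, and RNVU1-27 had 50, 47 and 52. RNVU1-6 had 36, 34 and 39, and LOC124904613 had 26, 27 and 34, while SNAR-A2 had 8, 14 and 14. Copies of U1 are near identical in sequence, and the treatment of reads that match several is not known from the sources used here, so the values of single copies are uncertain.

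The scaRNAs, which guide modification of snRNAs, were SCARNA4 (52, 54 and 52 reads), SCARNA7 (33, 36 and 35), SCARNA9 (25, 26 and 21), SCARNA14 (37, 43 and 43) and SCARNA17 (28, 24 and 19). The SCARNA17 segment was among the longest, 373 bp. Of the snoRNAs, SNORA79B had 58, 57 and 57 reads, SNORA74B had 37, 47 and 43, SNORD104 had 35, 29 and 29, and SNORD9, inside the span of the chromatin remodeller gene CHD8, had 26, 25 and 28. In 9 of the 10 snoRNA genes and 4 of the 5 scaRNA genes the segment also lay in the span of a protein-coding gene, and without strand or exons the reads cannot be assigned to either. The segment of RPL23, for example, is the one in SNORA21B, with 31, 27 and 17 reads.

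The microRNA genes were MIR3654 and MIR1238, whose mature sequences from RefSeq (GRCh38.p14) are given with the seed, bases 2 to 8, in capitals because the segments cover them whole.
hsa-miR-3654, chr7:133034860-133034878, minus strand: gACUGGACaagcugaggaa
hsa-miR-1238-5p, chr19:10552122-10552144, plus strand: gUGAGUGGgagccccagugugug
hsa-miR-1238-3p, chr19:10552183-10552202, plus strand: cUUCCUCGucugucugcccc

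The 3 seeds differ. The segment over MIR3654 is 161 bp long, lies in the span of CHCHD3 and in the pseudogene LOC729998, and had 52, 43 and 52 reads; the hairpin takes up 56 of its bases. The segment over MIR1238 is 407 bp long in ATG4D, a protease of autophagy, and had 19, 17 and 14 reads; the hairpin takes up 83 bases. In both, most of the segment is outside the hairpin, so the reads cover the host locus and not the microRNA alone.

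Pseudogene spans held 113 segments, 43 of them also in a protein-coding span. Copies of ribosomal protein genes held 45 of these segments (39.8%) in 41 genes, which is 2.06% of the 1989 such copies in the table; of all 17051 pseudogenes, 0.598% held a segment. EEF1A1 copies, from the translation elongation factor gene, held 4 segments in 4 of 50 genes. RPS3P4 had 28, 23 and 30 reads, RPS10P15 had 37, 35 and 30, and RPL10AP6 had 55, 48 and 43. Of the 78 cytosolic ribosomal protein genes themselves, 3 (3.85%) held a segment, against 5.97% of all protein-coding genes, and 6 had a narrow peak in every list. The width limit removed 75.7% of the peaks of replicate 3. Without replicate 3, 15 of the 78 (19.2%) held a segment, against 24.6% of all protein-coding genes. A processed copy and its parent mRNA share most of their sequence, so reads placed at such copies are of uncertain origin.

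Function lists of 1102 matched genes in 33 groups were set against the 5.97% of all protein-coding genes, with no test, since the lists were written with earlier results known. In total 237 listed genes (21.5%) held a segment, and 30 of the 33 lists lay above 5.97%. Most lists hold widely expressed housekeeping genes, so the second background, 25.0% of genes with a narrow peak in every list, is the closer one. Counted over such genes, 29 lists lay above it, but not the same ones: hnRNP proteins (3 of 14), mitosis genes (6 of 26) and HEK293 markers (1 of 5) lay below 25.0%, while cytosolic ribosomal proteins (3 of 6) and tissue-restricted genes (1 of 1), which are below 5.97% of all their genes, lay above it.

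Aminoacyl-tRNA synthetases, which charge tRNAs with amino acids, were the list with the largest share: 14 of 28, and 24 of the 28 had a narrow peak in every list. GARS1, WARS1, AARS1, TARS1 and LARS1 held 2 segments each. Nucleoporins and nuclear transport factors followed with 21 of 43 (48.8%), of which 40 had narrow peaks in every list. XPO5, the exporter of microRNA precursors, held 5 segments; TNPO3, which imports SR proteins, KPNB1, importin beta, and IPO9 held 3 each. With a minimum of 10 reads in every peak, the shares were 35.7% of synthetases and 37.2% of transport genes, against 2.97% of all protein-coding genes.

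**Figure D5:**
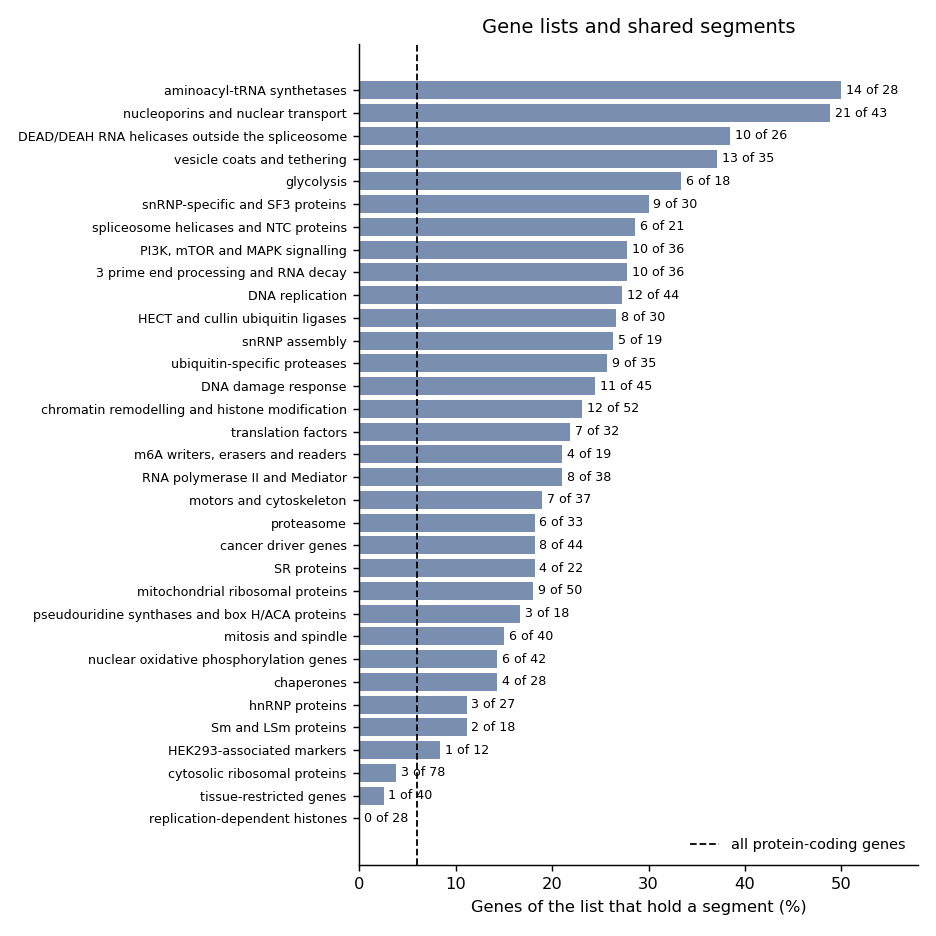
Share of the genes of each list that hold at least 1 shared segment (bars, percent), with the number of holders and of matched genes at each bar; the dashed line marks 5.97%, the share of all protein-coding genes. Aminoacyl-tRNA synthetases (14 of 28) and nuclear transport (21 of 43) are at the top, and cytosolic ribosomal proteins, tissue-restricted genes and replication-dependent histones are below the line.

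Of the spliceosome lists, the snRNP-specific and SF3 proteins had 9 holders of 30. Beside SNRNP70 these were SF3B3, a subunit of the U2 snRNP, with 4 segments, PRPF8, the central scaffold of the spliceosome, with 3, and U2AF2, which reads the polypyrimidine tract, with 2. PRPF8 had 17 to 25 reads in replicate 1, 16 to 29 in replicate 2 and 16 to 25 in replicate 3. Spliceosome helicases and proteins of the PRP19 complex had 6 of 21 (28.6%), led by PRPF19 with 3. The snRNP assembly list had 5 of 19 (26.3%): GEMIN5, which recognises the snRNA for the SMN complex, held 5, PRMT5 4, CLNS1A, its partner in Sm assembly, 3, and COIL and GEMIN4 1 each. Over genes with a narrow peak in every list, the snRNP-specific list had 9 of 19, the helicase list 6 of 13 and the assembly list 5 of 12. SR proteins had 4 of 22 (18.2%), or 4 of the 12 with a narrow peak in every list, and hnRNP proteins 3 of 27 (11.1%), or 3 of 14 (21.4%), which is below the 25.0% of all such genes.

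Among 18 genes for pseudouridine synthases and H/ACA particle proteins, 3 (16.7%) held a segment, TRUB2, PUSL1 and RPUSD3, with 1 segment each, and 10 of the 18 had narrow peaks in every list. The RPUSD3 and PUSL1 segments were among the weakest by rank, at the 0.355th and 1.996th percentile of −log10 p in their poorest list. The m6A list had 4 of 19, ALKBH5, RBM15, METTL3 and VIRMA. DEAD/DEAH RNA helicases outside the spliceosome had 10 of 26 (38.5%), with DHX33, DHX57 and DDX10 at 2 segments each. Over genes with a narrow peak in every list, the m6A list had 4 of 11 and these helicases 10 of 22.

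Outside RNA metabolism, vesicle coat and tethering genes had 13 of 35 (37.1%), led by SEC23B, a COPII coat subunit, with 3, and glycolysis had 6 of 18 (33.3%), led by ENO1 and GPI with 2. The signalling list had 10 of 36 (27.8%), with MAP2K2 at 7 and MTOR at 3, and the ubiquitin-specific proteases had 9 of 35 (25.7%), with 45 segments of which 30 were in USP9X and 5 in USP22. MAP2K2 had 22 to 38 reads in replicate 1, 13 to 35 in replicate 2 and 7 to 30 in replicate 3. Of the cancer driver genes 8 of 44 (18.2%) held a segment, NF2, the tumour suppressor merlin, with 4. Over genes with a narrow peak in every list, vesicle genes had 13 of 28, glycolysis 6 of 12 and signalling 10 of 27. Ubiquitin-specific proteases had 9 of 30 (30%) and cancer drivers 8 of 23, against 25.0% of all such genes.

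At the other extreme, none of 28 replication-dependent histone genes held a segment, and none of them had a narrow peak in every list. Of 40 genes restricted to other tissues, TNNI3, cardiac troponin I, was the only holder, and it was also the only 1 with a narrow peak in every list. Among 12 genes associated with HEK293 cells, KRT8, a keratin, held 2 segments, and 5 had a narrow peak in every list, and the rest lacked one in at least 1 list.

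Segments were unevenly spread over chromosomes even per gene. Chromosome 22 had 15.3 segments per 100 protein-coding genes and chromosome 17 had 13.4, against 5.93 on chromosome 18 and 5.04 on chromosome 8. Chromosome X had 9.43, with 30 of its 80 segments in USP9X.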

How the data were processed

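RIP-seq peak lists of 3 SNRPD2-overexpression samples were used; 3 control samples were not analysed here. The submitters' processing notes name MACS2 2.2.9.1, STAR 2.7.10b, cutadapt 4.2 and build GRCh38. The sources used here do not give caller options, the background library, or how duplicates and strand were treated. The deposited columns were a score, a fold (ratio of pileup plus 1 to background plus 1), and −log10 of the p-value and q-value; these are the authors' values and were used within a list only. Peak names do not start at 1, so counts hold for the listed peaks.

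Segments were made by intersection (pandas 2.3.3, numpy 2.4.6; Python 3.11.15). Reads were solved from fold and −log10 p within 0.002 on the −log10 scale, which left 1 peak unsolved. On simulated peaks the intersection gave the 121 segments of a count per base, and 98.1 to 99.7% of read numbers were recovered. Each segment was the overlap of 1 peak per list, and that peak gave the values. Genes are RefSeq spans of GRCh38.p14 (59675 genes; strand known for 15841 of 20033 protein-coding genes), assigned by midpoint; exons and a genome were not used here.

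Differences between covering and other narrow peaks of a list were tested over the 3 lists by an exact sign-flip permutation test (scipy 1.17.1). The segments, the 33 gene lists and the tests were chosen with earlier results of these data known. Named are the 10 protein-coding genes with most segments and with most per length, the 10 strongest segments, the leading noncoding and small RNA genes, the top 3 of each list, SNRPD2 and PUS7, and 8 segments in promoter windows; not all that the rule names are printed, and genes near starts or ends, genes with the most narrow peaks and the remaining small RNAs were picked with their values in view. No sequence on chromosome 8 is printed. Alternatives changed peak width, segment length, the q-value, reads, list length, gene assignment and the lists used.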

Additional observations from a re-analysis of the deposited data

How the results depend on the processing

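Numbers of segments and holding genes depend on the settings. With no width limit there were 3361 segments and 2163 protein-coding genes; with segments of at least 50 bp 1016, 724 and 153 listed genes; with a −log10 q of at least 1.3, 32, 20 and 7; with lists cut to equal length 469, 346 and 82; and with at least 10 reads, a choice made after seeing the data, 923 segments and 594 genes. From 2 lists only, leaving out each replicate in turn, there were 4017 to 9786 segments, 2444 to 4920 genes and 410 to 578 listed genes, most without replicate 3. The excess in the first 10% of the gene kept its sign in each alternative run, at 3.09 to 7.65 points with a replicate left out and 18.0 at the q limit. The difference in the last 10% turned to 9.71 points at the q limit, and was −0.455 with at least 10 reads and −2.88 to −1.43 with a replicate left out. The protein-coding difference of 3.05 points turned to −34.1 at the q limit, −2.63 with at least 2 reads, −8.73 at equal length and −8.53 with at least 10 reads, and was 0.0952 to 8.05 with a replicate left out; the cause was not tested. No paired analysis was possible because the control samples that share the replicate numbers were not analysed here. At 174 segments some list has under 5 reads, and sequencing depth is unknown.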

Other observations

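Of the 67 segments outside annotated genes, 7 lay in the pseudoautosomal region of chromosome Y, whose genes the table lists on X only. At the same positions of X are PLCXD1, GTPBP6 and SLC25A6, an ADP/ATP carrier of mitochondria. The 3 segments at the SLC25A6 positions had 34, 36 and 37, then 36, 37 and 38, then 34, 33 and 34 reads in replicates 1, 2 and 3. Narrow peaks in this region numbered 39, 170 and 20 on Y and 13, 31 and 1 on X, where no segment lay. The sources used here do not say how reads that match both X and Y were placed. These reads therefore cannot be assigned to either chromosome.

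Of the other 60 segments outside genes, 38 were within 1000 bp of a gene, 13 of them nearest to a tRNA gene, and 4 were over 10000 bp from any gene. Outside means that the midpoint was in no gene, so a segment could still touch one. Those nearest to TRT-AGT2-1, TRQ-CTG6-1, TRC-GCA14-1 and TRG-GCC1-5 lay 0 bp from it, and these are not among the tRNA genes counted above. The strongest of the 60 lay 532 bp from SYPL2, a synaptophysin relative, with 34, 30 and 30 reads. Another lay 429 bp from SLC25A44, a mitochondrial carrier of branched-chain amino acids, with 32, 23 and 21 reads.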
